A study of Homo sapiens with 12 samples.

Results

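The addition of BLU9931 to palbociclib was examined in 6 of the 12 RNA sequencing libraries of a series on the human cell line H520, which was established from a squamous carcinoma of the lung. The 6 are the 3 libraries of cells given BLU9931 and palbociclib together (the combination) and the 3 of cells given palbociclib alone, compared over all genes. The other 6 libraries came from control cells and from cells given BLU9931 alone, 3 of each, and are used here for the same drug difference without palbociclib. Each drug was given at 1 µM for 72 h. What the controls were given is not in the labels. Nor is it stated there that the libraries of 1 group are separate cultures, and p-values then measure only the spread between these libraries, which may be technical.

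BLU9931 is an irreversible inhibitor of FGFR4, a receptor tyrosine kinase that takes FGF19 as a ligand with the co-receptor KLB and signals through FRS2 to the ERK pathway. Palbociclib inhibits CDK4 and CDK6, the kinases that work with D-type cyclins to phosphorylate the retinoblastoma protein RB1 and so free E2F transcription factors to switch on genes for DNA synthesis. Genes for mitosis are switched on later in the cycle through promoter elements read by the MuvB complex with MYBL2 and FOXM1, and the same elements are held silent by MuvB with the pocket proteins RBL1 and RBL2 in cells that have left the cycle. Growth factor receptors meet this machinery mainly at D-type cyclins and at CDK inhibitors.

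Libraries held 21.7 M to 35.8 M counts (M, mega), with 29.3 M, 24.6 M and 24.9 M in palbociclib 1, 2 and 3 and 21.7 M, 27.6 M and 30.1 M in combination 1, 2 and 3. Levels are given as CPM, the count of a gene over the TMM-scaled library size in M. Of the squamous markers, SOX2 was high at 549 to 592 CPM in the combination libraries and PERP, KLF5 and TFAP2A were at 47.1 to 217 CPM there. KRT15, DSC3, FOXE1, TRIM29, BCL11A and GRHL3 were at 1.11 to 15.2 CPM. KRT5 and PAX9 stayed under 1 CPM and TP63, KRT14, KRT17, DSG3, GRHL2 and PKP1 were at or near 0 in every library. The defining squamous factors thus differ, with SOX2 high and TP63 nearly absent. Neuroendocrine INSM1 was detected in every library and NEUROD1 was at 0 in 11 of 12. Leukocyte markers PTPRC and CD3E were each at 0 in 11 of 12 libraries, and DCN and LUM, of fibroblasts, in 10 and 8. Of the other fibroblast genes COL1A1 was at 3.27 to 11.6 CPM and COL6A3 at up to 1.34 CPM over the 12 libraries. THY1 was at 1.58, 1.69 and 0.727 CPM in the palbociclib libraries and 0.272, 0.533 and 0.327 CPM in the combination libraries and fell (log2 change -1.80, SE 0.35, adjusted p = 0.0134). The THY1 call by edgeR was lost without combination 1 (adjusted p = 0.0656), combination 3 (0.0714) or palbociclib 2 (0.0524). The monocyte gene LYZ was at 1.31 to 2.02 CPM with palbociclib and 2.35 to 2.81 CPM with the combination. CD14 was at up to 1.56 CPM, and the remaining genes of both lists were under 1 CPM in every library. The part of these genes in the results was not tested. Palbociclib 3 stands apart from palbociclib 1 and 2: its deviations from the group mean follow gene GC content with a rank correlation of -0.846 across 11832 genes, against 0.76 and 0.708 for palbociclib 1 and 2 and between -0.388 and 0.581 for the combination libraries. Counts, and the changes of the genes that matter most, are therefore also given without palbociclib 3. Of the 96 called genes named here or in the other observations, 95 were also called without it, the exception being CDK2.

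More genes fell than rose when BLU9931 was added to palbociclib, and genes of mitosis and DNA replication were prominent among the falls. By edgeR's quasi-likelihood test with Benjamini-Hochberg adjustment over 20612 genes, 788 genes were called (3.82%), of which 599 fell (2.91% of those tested) and 189 rose (0.917%) in the combination against palbociclib, at an adjusted p under 0.05. Of these, 327 falls and 70 rises were at least 2-fold, and 525 falls and 156 rises were protein-coding. The median log2 change over all genes tested was 0.0029. Without palbociclib 3, 660 genes fell (3.2%) and 187 rose (0.907%). The excess of falls nearly vanished when a smooth GC trend was removed from each library, with 1297 falls (6.29%) and 1248 rises (6.05%), or 1089 and 963 when palbociclib 3 was also left out. The counts depended on library number: without combination 1, 2 or 3 the falls were 356, 364 and 368 and the rises 74, 68 and 78, and without palbociclib 1 or 2 the rises were 112 and 101. The 3 combination libraries lay below all 3 palbociclib libraries for 11.6% of tested genes and above them for 9.97%.

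Genes of mitosis fell most. Of 103 genes in 6 mitotic lists (cyclins A and B with the anaphase-promoting complex, mitotic kinases, kinesins, centromere and kinetochore, spindle and cytokinesis, and condensins with TOP2A and MKI67), 76 fell and 0 rose, with a median log2 change of -1.21 beside 0.0029 over all genes. The summed level of these genes was 7693, 7996 and 9116 CPM in palbociclib 1, 2 and 3 and 3903, 3802 and 3778 CPM in combination 1, 2 and 3. It was 14771 to 17389 CPM in the control libraries and 15206 to 15650 CPM with BLU9931 alone, so the combination libraries were the lowest of the 12. In bulk RNA, fewer cells in mitosis and less of each mRNA per cell cannot be told apart. Without palbociclib 3, the library with the highest sum of its group, 80 fell and the median was -1.11. With 1 of the 12 libraries left out the count lay between 64 and 87.

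**Figure D1:**
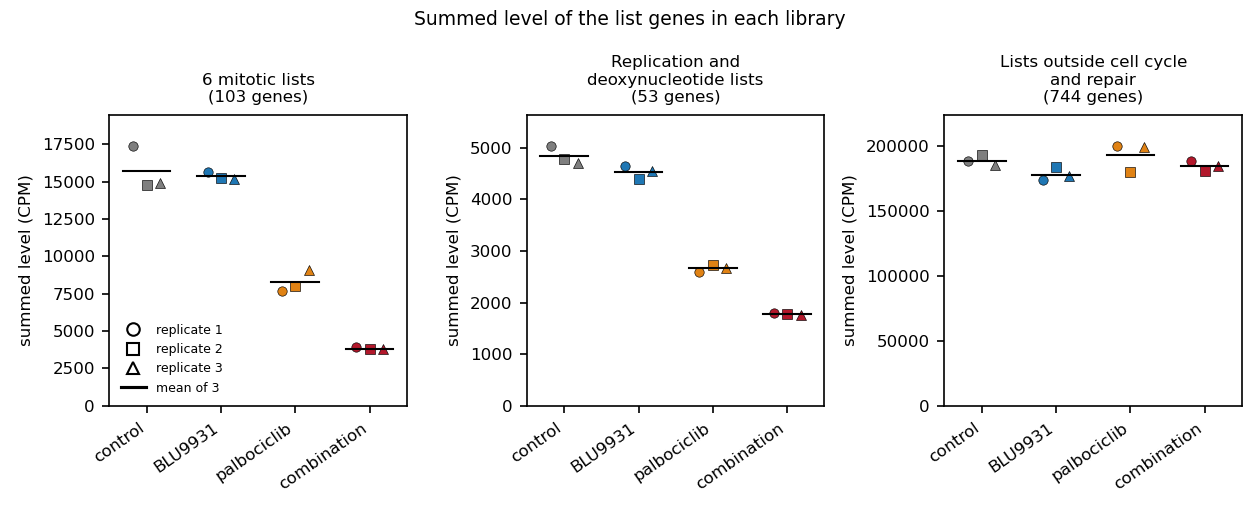
Summed level in CPM (linear axis from 0) of the 103 genes in 6 mitotic lists, the 53 genes in the replication and deoxynucleotide lists and the 744 genes in lists outside the cell cycle and repair, in each of 12 libraries. Points are libraries and bars the mean of 3. The 3 combination libraries are lowest for both cell cycle groups, at 3778 to 3903 and 1757 to 1792 CPM, and lie among the other groups for the remaining lists. The sum of the remaining lists is largely that of 13 mitochondrially encoded mRNAs. These held 105967 of 188698 CPM in combination 1 and 124676 of 199399 CPM in palbociclib 3.

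The promoters of the 4 mitotic genes with the largest falls are shown first, because they carry the words that the results on promoters below turn on. Sequences are from RefSeq on GRCh38.p14, 280 bases each, 5′ to 3′ on the gene's strand, from 250 bases before the annotated start to 30 after it. They are KIF20A at chr5:138178862-138179141 on the plus strand, CEP55 at chr10:93496362-93496641 on the plus strand, CKAP2L at chr2:112764580-112764859 on the minus strand and DLGAP5 at chr14:55191556-55191835 on the minus strand. Capitals mark a CHR word (TTTGAA, or TTCAAA on the other strand), a CCAAT word (CCAAT, or ATTGG on the other strand) or an E2F word (TTCCCGC or TTCGCGC or TTGCCGC or TTGGCGC, also on the other strand).
KIF20A: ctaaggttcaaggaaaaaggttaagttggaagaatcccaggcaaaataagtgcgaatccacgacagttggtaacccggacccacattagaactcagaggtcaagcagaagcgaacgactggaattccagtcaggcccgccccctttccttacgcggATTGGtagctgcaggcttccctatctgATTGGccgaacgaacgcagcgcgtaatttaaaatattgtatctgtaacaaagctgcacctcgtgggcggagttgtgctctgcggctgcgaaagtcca
CEP55: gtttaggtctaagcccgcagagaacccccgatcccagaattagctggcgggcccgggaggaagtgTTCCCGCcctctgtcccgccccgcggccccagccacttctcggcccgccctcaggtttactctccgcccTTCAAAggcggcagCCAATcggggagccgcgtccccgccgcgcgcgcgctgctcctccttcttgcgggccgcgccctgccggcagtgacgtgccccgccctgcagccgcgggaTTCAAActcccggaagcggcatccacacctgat
CKAP2L: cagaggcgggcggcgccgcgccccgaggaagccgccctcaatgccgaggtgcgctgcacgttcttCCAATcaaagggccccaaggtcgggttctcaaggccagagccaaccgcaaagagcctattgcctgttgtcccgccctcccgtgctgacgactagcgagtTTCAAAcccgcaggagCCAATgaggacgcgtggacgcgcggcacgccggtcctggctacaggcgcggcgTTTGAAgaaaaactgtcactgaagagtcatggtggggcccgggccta
DLGAP5: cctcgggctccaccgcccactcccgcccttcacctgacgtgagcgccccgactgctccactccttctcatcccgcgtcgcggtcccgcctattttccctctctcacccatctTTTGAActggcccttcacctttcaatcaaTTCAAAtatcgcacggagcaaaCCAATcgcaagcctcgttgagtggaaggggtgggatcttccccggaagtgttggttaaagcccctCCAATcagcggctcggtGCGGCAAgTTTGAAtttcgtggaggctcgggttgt
CEP55, CKAP2L and DLGAP5 hold CHR and CCAAT words together, DLGAP5 with a CHR word just after its start. KIF20A holds 2 CCAAT words and no CHR word in this window. Its window begins inside the gene, which starts at 138178719, so the absence of a word holds only for the start used here.

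KIF20A (ENSG00000112984, GRCh38 chr5:138178719-138187715, plus strand) is a kinesin of the central spindle needed for cytokinesis. Its level was 60.96, 64.2 and 59.7 CPM in palbociclib libraries 1, 2 and 3 and 9.65, 8.18 and 10.2 CPM in combination libraries 1, 2 and 3. All 3 combination libraries were far below all 3 palbociclib libraries, 6.60-fold lower by the fit (log2 change -2.72, SE 0.12, adjusted p = 5.16e-07). The change was -2.77 without palbociclib 3 (adjusted p = 4.67e-07). CEP55, which recruits the abscission machinery to the midbody, was at 28.7, 32.1 and 44.3 CPM in the palbociclib libraries and 6.93, 6.58 and 5.73 CPM in the combination libraries (log2 change -2.45, SE 0.21, adjusted p = 5.93e-05). CKAP2L, a spindle protein, was at 16.4, 19.98 and 33.7 CPM in the palbociclib libraries and 4.21, 4.55 and 4.55 CPM in the combination libraries, and DLGAP5, which stabilises kinetochore fibres, at 44.8, 47.3 and 70.3 CPM in the palbociclib libraries and 11.8, 9.63 and 9.65 CPM in the combination libraries. In CEP55, CKAP2L and DLGAP5 palbociclib 3 was the highest library, and their falls without it were -2.27, -2.06 and -2.18 on the log2 scale, beside -2.45, -2.39 and -2.39 with it.

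MKI67, the proliferation marker Ki-67, was at 311, 358 and 279 CPM in the palbociclib libraries and 74.6, 41.5 and 74.1 CPM in the combination libraries, a 4.98-fold difference (log2 change -2.32, SE 0.19, adjusted p = 5.14e-05). Combination 2 was the lowest library and the groups did not overlap. TOP2A, which untangles sister chromatids, was at 290, 313 and 417 CPM in the palbociclib libraries and 78.3, 78.5 and 72.2 CPM in the combination libraries (log2 change -2.15, SE 0.16, adjusted p = 2.63e-05). In the condensin list with these genes 8 of 10 fell, among them NCAPH (-1.43 on the log2 scale) and NCAPD2 (-0.89), subunits of condensin I. Without palbociclib 3 the log2 change was -2.42 for MKI67 and -2.01 for TOP2A, and 9 genes of the list fell.

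Among mitotic kinases 11 of 14 fell, with a median log2 change of -1.20. AURKB, the kinase of the chromosomal passenger complex, was at 25.4, 26.4 and 15.7 CPM in the palbociclib libraries and 4.08, 4.98 and 4.91 CPM in the combination libraries (log2 change -2.27, SE 0.20, adjusted p = 6.80e-05). PLK1, which drives entry into and progress through mitosis, was at 86.01, 80.9 and 57.7 CPM in the palbociclib libraries and 23.7, 24.6 and 25.2 CPM in the combination libraries (log2 change -1.61, SE 0.14, adjusted p = 5.85e-05). In both, palbociclib 3 was the lowest library of its group and still lay above every combination library. NEK2 fell by 1.69 and CIT, the citron kinase of the midbody, by 1.36 on the log2 scale. Among kinesins 10 of 13 fell, with a median of -1.46: KIF4A, a chromosome-bound motor, by 2.23, KIF2C, which depolymerises microtubules at centromeres, by 2.06, and KIFC1 by 1.46. Without palbociclib 3 the changes of AURKB and PLK1 were -2.50 and -1.79, and 11 kinases and 11 kinesins fell.

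Cyclins and their degradation machinery followed the same direction, with 12 of 18 genes fallen. CCNA2 (cyclin A2) was at 48.7, 54.1 and 70.4 CPM in the palbociclib libraries and 17.2, 14.9 and 12.9 CPM in the combination libraries (log2 change -1.95, SE 0.18, adjusted p = 9.66e-05). PTTG1 (securin, which holds separase inactive until anaphase) fell by 2.02, UBE2C, the ubiquitin-conjugating enzyme of the anaphase-promoting complex, by 1.48 and CCNB2 (cyclin B2) by 1.39 on the log2 scale. In the spindle and cytokinesis list 18 of 22 fell, including TPX2, the activator of Aurora A (-1.30), PRC1, which bundles midzone microtubules (-1.27), CDCA8, a passenger complex subunit (-1.22), and SPAG5 (-1.17). At the centromere and kinetochore 17 of 26 fell, including SPC25 (-2.13), NUF2 (-1.71) and NDC80 (-1.60), which form one complex that binds microtubules, and CENPF (-1.73). All 26 had a value below 0. Without palbociclib 3, 14 genes of the cyclin list, 17 of the spindle list and 18 of the centromere list fell, and CCNA2 had a log2 change of -1.80.

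**Figure D2:**
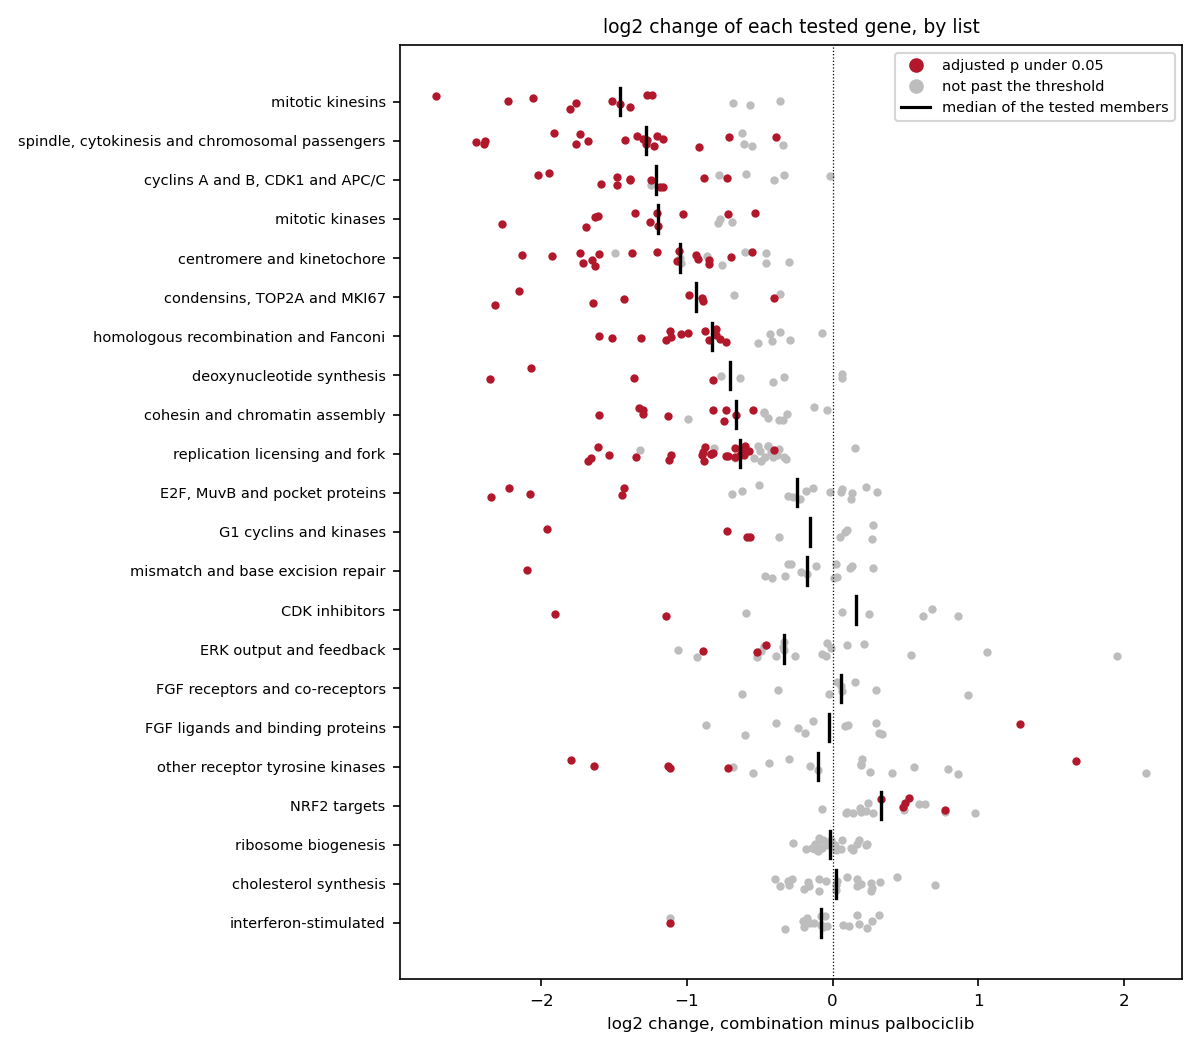
log2 change in the combination against palbociclib (x axis) of every tested gene in 22 lists (rows), with genes past an adjusted p of 0.05 in red, other genes in grey and the median of each list as a bar. The 6 mitotic lists have medians between -1.46 and -0.94, while FGF receptors, ribosome biogenesis and cholesterol synthesis hold no red point.

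Genes of DNA synthesis also fell, with smaller median changes than those of mitosis. In the replication list 24 of 43 fell and 0 rose (median log2 change -0.64), and in the deoxynucleotide list 4 of 10 (median -0.70). Without palbociclib 3 these counts were 28 and 5. They also depended on the combination libraries, with 15 replication genes called without combination 1, 2 or 3 in turn. The summed level of both lists was 2595, 2731 and 2678 CPM in palbociclib 1, 2 and 3 and 1792, 1781 and 1757 CPM in the combination libraries, which were lower in all 3.

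RRM2 and TYMS had the largest falls of these lists, and their promoters are shown for comparison with the mitotic ones, with the same capitals. The windows are RRM2 at chr2:10122489-10122768 on the plus strand and TYMS at chr18:657403-657682 on the plus strand.
RRM2: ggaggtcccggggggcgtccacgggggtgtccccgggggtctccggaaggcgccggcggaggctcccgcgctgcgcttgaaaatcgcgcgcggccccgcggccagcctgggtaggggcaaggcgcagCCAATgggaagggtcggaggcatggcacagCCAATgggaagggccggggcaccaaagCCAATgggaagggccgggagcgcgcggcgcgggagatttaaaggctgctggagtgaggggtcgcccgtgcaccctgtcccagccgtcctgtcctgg
TYMS: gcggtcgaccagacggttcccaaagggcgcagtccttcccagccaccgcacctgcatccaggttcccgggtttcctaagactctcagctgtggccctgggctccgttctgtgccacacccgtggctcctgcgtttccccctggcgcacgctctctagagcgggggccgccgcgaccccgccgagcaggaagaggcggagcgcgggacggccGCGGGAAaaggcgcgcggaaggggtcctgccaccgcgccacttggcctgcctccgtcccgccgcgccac
RRM2 holds 3 CCAAT words and TYMS holds 1 E2F word, and neither holds a CHR word. The RRM2 window also begins inside its gene, which starts at 10122328. RRM2, the regulated subunit of ribonucleotide reductase, was at 40.9, 49.1 and 56.3 CPM in the palbociclib libraries and 10.4, 8.99 and 9.26 CPM in the combination libraries. Every combination library was below every palbociclib library (log2 change -2.35, SE 0.14, adjusted p = 3.44e-06), and the change was -2.26 without palbociclib 3 (adjusted p = 1.80e-06). The TYMS gene, for thymidylate synthase, was at 27.6, 32.5 and 29.5 CPM in the palbociclib libraries and 6.03, 7.68 and 7.59 CPM in the combination libraries (log2 change -2.07, SE 0.12, adjusted p = 3.52e-06). RRM1, the larger reductase subunit, fell by 0.82 on the log2 scale. TK1, thymidine kinase, was the fourth gene called here (log2 change -1.36, SE 0.29, adjusted p = 0.0208), and its adjusted p was 0.0605 and 0.076 without palbociclib 1 or 2 and 0.0756, 0.0997 and 0.078 without combination 1, 2 or 3.

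MCM10 acts with the replicative helicase. It was at 17.1, 19.8 and 20.4 CPM in the palbociclib libraries and 6.03, 5.87 and 6.25 CPM in the combination libraries. Its log2 change was -1.66 (SE 0.12, adjusted p = 1.56e-05). CDC45, part of that helicase, fell by 1.35, POLE2, a subunit of DNA polymerase epsilon, by 1.61, and CLSPN, the checkpoint adaptor claspin, by 1.53 on the log2 scale. Among homologous recombination and Fanconi genes 14 of 20 fell (median -0.83), including the nuclease EXO1 (-1.60) and FANCD2 (-0.85). Mismatch and base excision repair gave 1 fall of 15, the glycosylase NEIL3 (log2 change -2.10, SE 0.23, adjusted p = 2.95e-04), and 2 without palbociclib 3 or without control 1. In the cohesin and chromatin assembly list 10 of 19 fell, among them CHAF1B of the histone chaperone CAF-1 (-1.33), ESCO2, which acetylates cohesin (-1.61), and LMNB1, lamin B1 (-1.30). Without palbociclib 3 the homologous recombination list held 15 falls and the cohesin list 12. Over all tested genes 2.91% fell.

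Some of the transcription factors that govern these genes also fell. Of 20 genes for E2F factors, the MuvB complex and pocket proteins, 5 fell: MYBL2, MYBL1, E2F7, E2F8 and E2F2. Over all genes tested the share that fell was 2.91%. MYBL2 (B-MYB, the partner of MuvB at mitotic promoters) was at 95.2, 89.8 and 71.2 CPM in the palbociclib libraries and 17.1, 14.2 and 19.1 CPM in the combination libraries (log2 change -2.34, SE 0.15, adjusted p = 6.31e-06), a 5.08-fold difference with no overlap, and its change was -2.48 without palbociclib 3 (adjusted p = 2.17e-06). E2F8 and E2F7, the repressive E2F factors, had log2 changes of -2.22 (adjusted p = 3.77e-04) and -2.07 (adjusted p = 3.23e-06), and E2F2 and MYBL1 of -1.44 and -1.43. FOXM1 had a log2 change of -0.62 (adjusted p = 0.621) and the MuvB subunits LIN9, LIN37, LIN52 and LIN54 of -0.31, 0.23, 0.07 and -0.18, none past the threshold. E2F1 was at 49.3, 49.5 and 29.4 CPM in the palbociclib libraries and 23.3, 25.8 and 30.3 CPM in the combination libraries. Palbociclib 3 lay within the range of the combination libraries. The log2 change of E2F1 was -0.69 with it (adjusted p = 0.145) and -0.93 without palbociclib 3 (adjusted p = 0.0229), past the threshold, which made 6 falls in the list.

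The targets of palbociclib and their partners did not pass the threshold. The log2 change was 0.28 for CDK4 (SE 0.15), 0.05 for CDK6 (SE 0.16), 0.10 for CCND1, cyclin D1 (SE 0.08), and -0.22 for RB1 (SE 0.20). Among 10 tested G1 cyclins and kinases 4 fell. CCNE2 (cyclin E2, the partner of CDK2) was at 14.1, 18.4 and 26.3 CPM in the palbociclib libraries and 5.30, 4.87 and 4.91 CPM in the combination libraries (log2 change -1.96, SE 0.24, adjusted p = 7.76e-04), with palbociclib 3 the highest and the combination libraries close to each other. The other falls, CDC25A (-0.72), CDK2 (-0.58) and CCNE1 (-0.57), were smaller. CDK2 lost its call without any 1 library other than control 1 (adjusted p of 0.0585 to 0.15), and CCNE1 without palbociclib 1 or 2 (0.0564 and 0.0779) or combination 1, 2 or 3 (0.103, 0.0542 and 0.0599), so the list held 2 falls without palbociclib 2 or without any 1 combination library and 3 without palbociclib 3. Of 8 CDK inhibitors, CDKN2C (p18) fell (log2 change -1.90, SE 0.28, adjusted p = 0.00251) from a low level of 3.79, 4.17 and 3.92 CPM, and CDKN3, a phosphatase of CDK1 and CDK2, fell by 1.14 on the log2 scale. CDKN1A (p21) was at 5.80, 5.43 and 4.41 CPM in the palbociclib libraries and 7.84, 7.14 and 9.13 CPM in the combination libraries (log2 change 0.62, SE 0.26, adjusted p = 0.256). The inhibitor list held 2 falls, and 3 without palbociclib 3. Over all tested genes 2.91% fell.

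A larger share of fallen genes than of all tested genes held a CHR word. Promoters (250 bases before to 50 after the start, both strands) were matched by symbol for 86 of the 103 mitotic genes, and 55 of them (64%) held a CHR word, beside 9.89% of the 11837 promoters of tested genes and 15.4% of all 27305 promoters in the table. A CCAAT word was in 68.6% of mitotic promoters (36.3% of tested genes), and both words were in 46.5% (4.16%). An E2F word was in 32.6% (19.8%). The replication and deoxynucleotide promoters were the other way round, with a CHR word in 2 of 44 (4.55%) and an E2F word in 28 of 44 (63.6%). Over all genes called, a CHR word was in 21.6% of 435 promoters of fallen genes and in 6.77% of 133 promoters of risen genes. In fallen genes that are in no list it was in 14% of 299. The shares are descriptions with no test, and a matching word is not a bound site. Words that share letters were each counted. A GENCODE transcript start lay near the start used in 76.9% of plus-strand and 76.7% of minus-strand promoters checked. In the rest a word may be missed.

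Within the mitotic lists the 55 genes with a CHR word had a median log2 change of -1.34 and the 31 without one -1.07. Their interquartile ranges, -1.72 to -0.856 and -1.47 to -0.706, overlap, and without palbociclib 3 the medians were -1.25 and -1.11. Of the genes with a CHR word 76.4% fell and of those without one 71%. Without palbociclib 3 the order turned, with 74.5% and 83.9%. In the same mitotic lists 67.9% of 28 genes with an E2F word fell and 77.6% of 58 without one. In the replication and deoxynucleotide lists 20 of 28 genes with an E2F word fell (71.4%) and 6 of 16 without one (37.5%). The medians there were -0.69 and -0.55, and the shares without palbociclib 3 were 82.1% and 43.8%.

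The receptor that BLU9931 targets did not pass the threshold, nor did the other FGF receptors and co-receptors. FGFR4 was at 27.4, 26.8 and 9.86 CPM in the palbociclib libraries and 20.7, 22.00 and 22.7 CPM in the combination libraries. Palbociclib 3 was far below the other 5 libraries, and the log2 change was 0.03 (SE 0.33, adjusted p = 0.982), or -0.34 without palbociclib 3 (adjusted p = 0.501). FGFR1 was at 1154, 1139 and 700 CPM in the palbociclib libraries and 935, 1006 and 996 CPM in the combination libraries, again with palbociclib 3 the lowest (log2 change -0.03, adjusted p = 0.975). By edgeR 0 of 9 FGF receptors and co-receptors passed the threshold, and 0 did when any 1 library was left out. DESeq2 called 0 as well, and 0 had an unadjusted p under 0.05. With 3.82% of all tested genes called, a count of 0 among 9 does not set this family apart. The co-receptor KLB had a mean of 0.689 CPM with palbociclib and 0.450 CPM with the combination, and the adaptor FRS2 had a log2 change of 0.93 (adjusted p = 0.521). FGF19, the ligand of FGFR4, was at a mean of 284 CPM with palbociclib and 302 CPM with the combination (log2 change 0.09, adjusted p = 0.824).

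Of 22 genes that report ERK activity 3 fell, where 2.91% of all tested genes fell, and all 3 calls depended on single libraries. SPRY4 was at 167, 177 and 142 CPM in the palbociclib libraries and 114, 107 and 119 CPM in the combination libraries (log2 change -0.52, SE 0.12, adjusted p = 0.0340), SPRY2 had a log2 change of -0.46 (adjusted p = 0.0382) and the transcription factor ETV1 of -0.89 (adjusted p = 0.0316). SPRY4 and SPRY2 are feedback inhibitors of receptor signalling. The list held 0 falls when any of control 2, BLU9931 1, 2 or 3, palbociclib 2, or combination 1 or 2 was left out, 1 without combination 3, and 5 without control 1. Without palbociclib 3 it held 3 falls and 1 rise. The ERK phosphatase DUSP6 was at 113, 139 and 184 CPM in the palbociclib libraries and 119, 123 and 122 CPM in the combination libraries (log2 change -0.26, adjusted p = 0.596), with palbociclib 3 the highest library, and ETV4 and ETV5 had log2 changes of -0.51 and -0.39 (adjusted p = 0.324 and 0.0638). MYC ranged from 3.23 to 26.7 CPM within palbociclib and from 18.98 to 50.6 CPM within the combination, so its log2 change of 1.06 (SE 0.95) was not distinguishable from 0.

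Of 21 other receptor tyrosine kinases tested, 5 fell and 1 rose, where 2.91% of all tested genes fell and 0.917% rose. EGFR was at 5.47, 6.45 and 7.07 CPM in the palbociclib libraries and 1.27, 2.06 and 2.09 CPM in the combination libraries (log2 change -1.79, SE 0.20, adjusted p = 3.66e-04), 3.47-fold lower with no overlap, and the change was -1.73 without palbociclib 3 (adjusted p = 7.51e-04). KIT, the stem cell factor receptor, fell by 0.72, and IGF1R, TYRO3 and RET had log2 changes of -1.64, -1.13 and -1.12. NTRK3 rose from 1.38, 1.10 and 0.525 CPM to 2.81, 3.31 and 3.53 CPM (log2 change 1.67, SE 0.29, adjusted p = 0.00673). The list held 3 falls without palbociclib 2 or without combination 1 or 2, and 2 rises without palbociclib 2, while without palbociclib 3 it still held 5 falls and 1 rise.

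**Figure D3:**
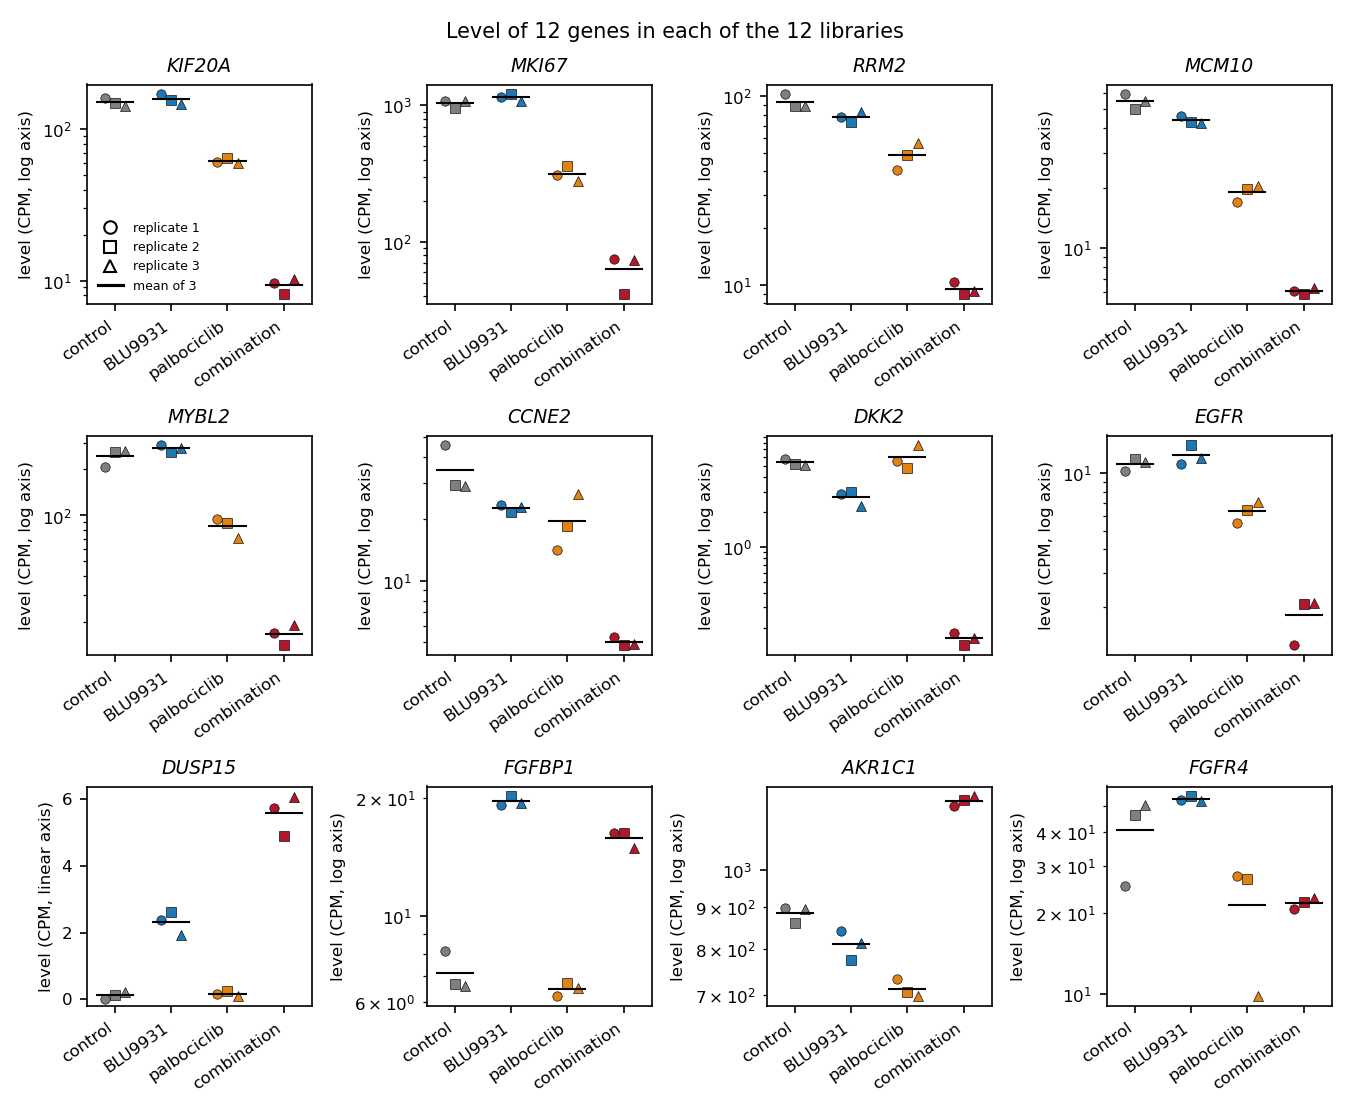
Level in CPM of 12 genes in each of the 12 libraries (log axes, except the linear axis of DUSP15, which was at 0 in control 1). Points are libraries and bars the mean of 3. KIF20A, MKI67, RRM2, MCM10, MYBL2, CCNE2, DKK2 and EGFR are lowest in the 3 combination libraries, DUSP15 and AKR1C1 are highest there, and FGFR4 in palbociclib 3, at 9.86 CPM, is the lowest of its 12 libraries.

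Without palbociclib, BLU9931 called few genes and none of the cell cycle. BLU9931 alone against control called 29 genes higher (0.141%) and 8 lower (0.0388%), with 0 of the 247 tested genes of 14 cell cycle and repair lists among them, of which 139 fell in the combination. Of these 247 genes, 27 were lower and 12 higher at an unadjusted p under 0.05 with BLU9931 alone. DESeq2 called 3 of them lower and 1 higher. Over all 20612 genes 3347 had an unadjusted p under 0.05 in that comparison and DESeq2 called 590, so these lists do not stand out there. The calls for BLU9931 alone differed between settings, and the cause was not tested. Over all genes DESeq2 called 296 higher and 294 lower, and leaving out palbociclib 3, which is in neither group, gave 226 and 198. Leaving out 1 control or BLU9931 library gave fewer. There was 1 higher and 0 lower without BLU9931 1, 3 and 0 without control 2, and at most 10 and 2, without control 1. The replicate block gave 2 and 0. The median log2 change of the 103 mitotic genes was -0.09 with BLU9931 alone (0.05 without control 1, whose deviations follow GC content with a rank correlation of -0.798), against -1.21 with palbociclib present. The interaction, which tests whether the BLU9931 difference with palbociclib departs from that without it, was past the threshold for 328 genes (1.59%), 270 below 0 (1.31%) and 58 above 0 (0.281%). Of the 103 mitotic genes 52 were below 0, and of the 53 replication and deoxynucleotide genes 11. Among the 599 falls 238 had an interaction below 0 past the threshold, and among the 189 rises 30 above 0. Without palbociclib 3 the interaction called 643 genes below 0 and 332 above, with 65 mitotic and 18 replication and deoxynucleotide genes. Leaving out 1 other library gave 133 to 292 below 0 and 13 to 43 above, and at the least 38 mitotic genes (without control 2) and 7 replication and deoxynucleotide genes (without BLU9931 1, combination 1 or combination 2). The count below 0 was 133 without BLU9931 1, and the lowest count above 0, 13, was also without it.

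KIF20A was at 160, 150 and 142 CPM in control 1, 2 and 3 and 170, 156 and 148 CPM in BLU9931 1, 2 and 3, ranges that overlap (log2 change 0.07), and the interaction was log2 -2.79, SE 0.15, adjusted p = 8.91e-06. For MKI67 it was log2 -2.46, SE 0.26, adjusted p = 7.39e-04, for TOP2A log2 -2.02, SE 0.23, adjusted p = 9.16e-04, and for KIF2C log2 -2.19, SE 0.12, adjusted p = 8.91e-06. RRM2 (log2 -2.09, SE 0.19, adjusted p = 1.95e-04) and MYBL2 (log2 -2.52, SE 0.20, adjusted p = 9.45e-05) passed it too. PIF1, a DNA helicase, had an interaction of -3.30 (SE 0.22, adjusted p = 2.98e-05): it was at 23.3, 22.2 and 17.4 CPM in the palbociclib libraries and 2.67, 2.81 and 3.04 CPM in the combination libraries, and its mean was 42.5 CPM in control and 56.8 CPM with BLU9931 alone, a difference that did not pass the test (adjusted p = 0.229). CCNE2 did not pass the interaction with all libraries (log2 -1.34, adjusted p = 0.0729) but did without palbociclib 3 (adjusted p = 0.0399) and with GC offsets (adjusted p = 1.35e-04).

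F13A1, the A subunit of coagulation factor XIII, differed in another way. It was at 122, 124 and 142 CPM in the palbociclib libraries and 47.8, 46.4 and 45.2 CPM in the combination libraries, but at 36.9, 34.4 and 34.5 CPM in control and 53.6, 52.2 and 54.00 CPM with BLU9931 alone. BLU9931 thus went with a higher level without palbociclib (log2 change 0.60, adjusted p = 0.0381) and a lower one with it (log2 change -1.47, SE 0.10, adjusted p = 6.63e-06). The interaction was -2.07 (SE 0.14, adjusted p = 2.98e-05). The first call comes from the 29 rises with BLU9931 alone, a list that held 1 gene without BLU9931 1.

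**Figure D4:**
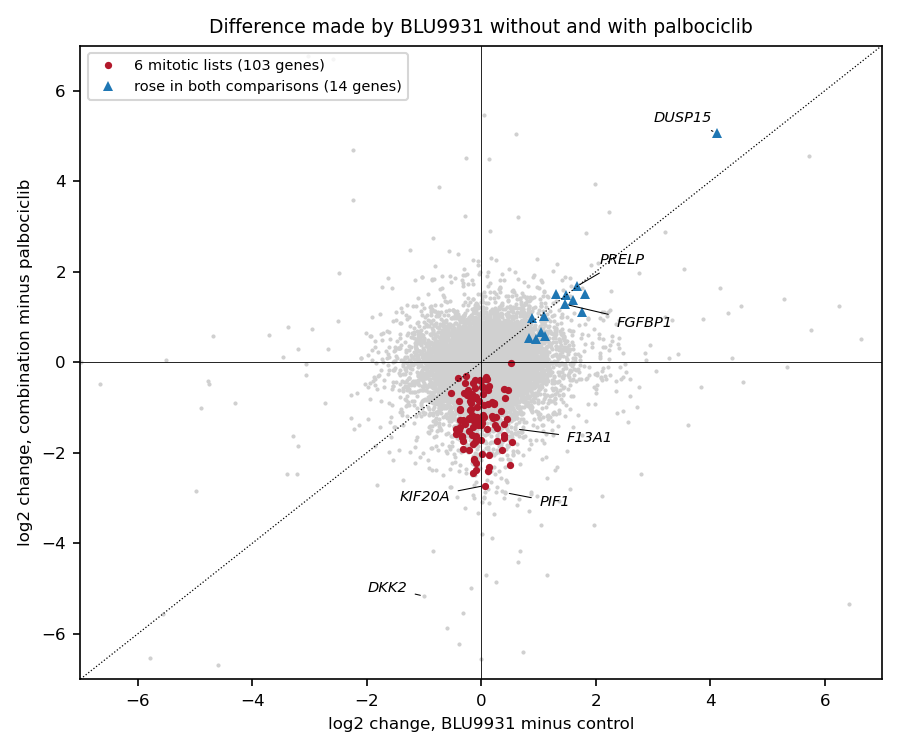
log2 change made by BLU9931 in control cells (x axis) and in palbociclib-treated cells (y axis) for 20612 genes in grey, with 10 genes outside the axes not drawn. Dotted line: equal changes. The 103 mitotic genes (red) spread along the y axis near 0 on the x axis, and the 14 genes that rose in both comparisons (blue) lie near the dotted line. The 14 were chosen for a rise in both, which favours that place.

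Across all 20612 genes the changes with and without palbociclib, which share no library, had a Pearson correlation of 0.0921 and a Spearman correlation of 0.144. Without palbociclib 3 these were -0.0425 and -0.121, so their sign rests on that library. Of the 29 genes that rose with BLU9931 alone, 14 also rose when it was added to palbociclib (48.3% of the former and 7.41% of the latter), while 0 of its 8 falls were shared, and 4 genes were called in opposite directions. Without palbociclib 3 the shared rises were 30 (13.3% of 226 and 16% of 187), the shared falls 11 (5.56% of 198 and 1.67% of 660) and the opposite calls 25. These overlaps rest on the calls for BLU9931 alone, which held 1 rise without BLU9931 1 and 3 without control 2. By edgeR's test of the interaction 0 of the 14 passed, as by DESeq2. An unadjusted p under 0.05 was found for 2 of the 14, beside 2937 of all 20612 genes. The 14 were chosen for a rise in both comparisons, which favours a small interaction. The test thus cannot decide whether their changes are alike. The lowest adjusted p among them was 0.183, for CFAP61.

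DUSP15 (ENSG00000149599, GRCh38 chr20:31847637-31870747, minus strand), a dual-specificity phosphatase, had the largest rise among the genes named here. It was at 0.168, 0.236 and 0.0808 CPM in the palbociclib libraries and 5.76, 4.91 and 6.09 CPM in the combination libraries, from 5, 6 and 2 counts to 127, 138 and 186 counts (log2 change 5.07, SE 0.48, adjusted p = 1.15e-04), and all combination libraries lay above all palbociclib libraries. The fold rests on very few counts with palbociclib, and the change was 4.75 without palbociclib 3 (adjusted p = 3.38e-04). With BLU9931 alone it was at 2.38, 2.61 and 1.93 CPM, against 0, 0.138 and 0.227 CPM in control. FGFBP1, a secreted protein that releases FGFs from the matrix, was the 1 called gene of 12 tested FGF ligands and binding proteins, at 6.24, 6.73 and 6.55 CPM in the palbociclib libraries and 16.3, 16.3 and 14.9 CPM in the combination libraries (log2 change 1.28, SE 0.13, adjusted p = 1.26e-04), with no overlap, and its change was 1.26 without palbociclib 3 (adjusted p = 3.24e-04). BLU9931 alone raised it as well, from 8.12, 6.68 and 6.63 CPM to 19.3, 20.2 and 19.5 CPM (log2 change 1.46, adjusted p = 0.00195). With 3.82% of all tested genes called, 1 of 12 does not set that list apart.

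Other large rises with a like change under BLU9931 alone were PRELP, a matrix proteoglycan (3.59, 4.56 and 4.12 CPM in the palbociclib libraries and 13.3, 11.8 and 14.1 CPM in the combination libraries), CRYAB, the small heat shock protein alpha-B crystallin (2.65, 3.27 and 2.38 CPM in the palbociclib libraries and 8.11, 9.21 and 6.45 CPM in the combination libraries), and SLC44A2, a choline transporter (34.04, 38.4 and 20.1 CPM in the palbociclib libraries and 90.2, 81.3 and 89.1 CPM in the combination libraries). Their log2 changes were 1.68, 1.52 and 1.49 with palbociclib and 1.67, 1.31 and 1.48 without it. SLC44A2 was lowest in palbociclib 3, and its change was 1.24 without palbociclib 3 (adjusted p = 1.66e-04). CDA, cytidine deaminase, rose by 1.85 and EPSTI1, an interferon-inducible gene, by 1.54 on the log2 scale, without a call under BLU9931 alone (adjusted p = 0.0542 and 0.201).

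The remaining large rises depended more on single libraries or on the unit. GDF15, a secreted stress cytokine, was at 2.41, 1.65 and 0.364 CPM in the palbociclib libraries and 5.67, 5.44 and 7.10 CPM in the combination libraries (log2 change 2.02, SE 0.49, adjusted p = 0.0438), with palbociclib 3 far below the other 5 libraries. Its adjusted p was 0.0293 without palbociclib 3 and over 0.05 in 7 of the 17 other settings tried. GSX1, a homeobox gene, was at 19.6, 18.02 and 7.32 CPM in the palbociclib libraries and 35.7, 39.9 and 47.2 CPM in the combination libraries (log2 change 1.45, SE 0.33, adjusted p = 0.0340), and its call was lost without palbociclib 2 (adjusted p = 0.063) and without combination 1, 2 or 3 (0.0715, 0.0943 and 0.123), control 2 (0.053) or BLU9931 1, 2 or 3 (0.0563, 0.0583 and 0.0566). GDF15 was lost without palbociclib 2 (0.109), without combination 1, 2 or 3 (0.1, 0.101 and 0.141), and without control 2 or 3 or any BLU9931 library (0.0535 to 0.0715). The zinc finger genes ZNF589 and ZNF678 rose by 1.94 and 1.999 in counts but not on the deposited TPM values (adjusted p = 0.336 and 0.0613). The promoters of the first and second largest rises are shown for contrast with those of the falls: DUSP15 at chr20:31870635-31870914 on the minus strand and GDF15 at chr19:18385908-18386187 on the plus strand.
DUSP15: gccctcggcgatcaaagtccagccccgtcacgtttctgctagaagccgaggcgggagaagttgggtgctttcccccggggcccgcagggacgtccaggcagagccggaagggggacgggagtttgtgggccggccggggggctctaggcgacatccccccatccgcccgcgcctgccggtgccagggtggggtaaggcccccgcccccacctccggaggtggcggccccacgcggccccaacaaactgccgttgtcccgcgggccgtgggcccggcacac
GDF15: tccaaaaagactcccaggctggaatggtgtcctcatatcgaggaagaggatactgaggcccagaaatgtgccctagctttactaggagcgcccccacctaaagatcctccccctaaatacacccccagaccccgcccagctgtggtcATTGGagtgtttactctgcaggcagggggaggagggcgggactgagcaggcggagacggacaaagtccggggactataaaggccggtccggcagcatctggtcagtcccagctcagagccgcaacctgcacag
Neither holds a CHR or E2F word, and GDF15 holds 1 CCAAT word on the other strand.

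Targets of the oxidative stress factor NRF2 were the list with the most rises, 5 of 19, with 0 falls and a median log2 change of 0.33. Over all tested genes 0.917% rose and the median was 0.0029. This list, like the others, was chosen with earlier results of these data known. AKR1C1, an aldo-keto reductase, was at 734, 707 and 699 CPM in the palbociclib libraries and 1203, 1221 and 1235 CPM in the combination libraries (log2 change 0.77, SE 0.06, adjusted p = 4.48e-05), with no overlap. NQO1, a quinone reductase, was at 384, 386 and 412 CPM in the palbociclib libraries and 572, 578 and 554 CPM in the combination libraries (log2 change 0.53, SE 0.08, adjusted p = 0.00251). AKR1C2 (0.49), AKR1C3 (0.33) and SRXN1, sulfiredoxin (0.50), were the others, AKR1C3 being named after its value was seen. SRXN1 lost its call without palbociclib 1 (adjusted p = 0.0635), combination 2 (0.0512) or combination 3 (0.0801). AKR1C1, AKR1C2 and AKR1C3 are near-identical neighbours, so reads may be split among them and their values are uncertain. The interaction was past the threshold for AKR1C1 (log2 0.90, SE 0.09, adjusted p = 4.13e-04) and NQO1 (log2 0.50, SE 0.11, adjusted p = 0.0476). The list held 6 rises without palbociclib 3 and 3 without palbociclib 1, combination 2 or combination 3.

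The other rises with the strongest interaction were ESRG, a long non-coding RNA gene, ODC1 and ZNF678. ESRG was at 277, 264 and 292 CPM in the palbociclib libraries and 537, 508 and 518 CPM in the combination libraries (log2 change 0.91, SE 0.09, adjusted p = 1.12e-04), with an interaction of 0.83 (SE 0.12, adjusted p = 0.00504). ODC1, the rate-limiting enzyme of polyamine synthesis, was lower with BLU9931 alone (log2 change -0.53, adjusted p = 0.0413) and higher when BLU9931 joined palbociclib, at 130, 139 and 144 CPM in the palbociclib libraries and 172, 186 and 172 CPM in the combination libraries (log2 change 0.36, SE 0.09, adjusted p = 0.0449), with an interaction of 0.90 (adjusted p = 0.00382). Its call in the combination was lost in 10 of the 17 other settings tried, including without palbociclib 1 (0.137) or 2 (0.108) and without combination 1, 2 or 3 (0.105, 0.172 and 0.108), and likewise without control 2 or 3 or any BLU9931 library (0.0589 to 0.0737). The lower call of ODC1 with BLU9931 alone was lost without BLU9931 1 or control 2, where 0 genes were called lower. For ZNF678 the interaction was log2 1.89, SE 0.28, adjusted p = 0.00579.

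Outside the cell cycle the largest falls included secreted and matrix proteins. DKK2 (ENSG00000155011, GRCh38 chr4:106921802-107283806, minus strand), a secreted modulator of WNT signalling, was at 5.50, 4.84 and 7.56 CPM in the palbociclib libraries and 0.181, 0.142 and 0.164 CPM in the combination libraries, from 164, 123 and 187 counts to 4, 4 and 5. It was 35.99-fold lower (log2 change -5.17, SE 0.26, adjusted p = 1.58e-06), the largest fall among the genes named here, and the change was -4.99 without palbociclib 3 (adjusted p = 9.86e-07). Its interaction was log2 -4.18, SE 0.33, adjusted p = 7.30e-05. It was the 1 called gene of 26 tested WNT pathway genes, and 2 were called without palbociclib 1. With 3.82% of all tested genes called, this count does not set the WNT list apart. COL4A2, a basement membrane collagen, was at 27.2, 25.6 and 18.7 CPM in the palbociclib libraries and 4.30, 3.95 and 4.81 CPM in the combination libraries (log2 change -2.45, SE 0.19, adjusted p = 3.30e-05), with an interaction of -2.56 (adjusted p = 4.81e-04), and its change was -2.63 without palbociclib 3 (adjusted p = 9.45e-06). COL4A1, which shares its promoter region with COL4A2, fell by 1.84 and LAMA1, a laminin chain, went from 124, 100 and 69 counts to 0, 2 and 8 (log2 change -4.85, SE 0.47, adjusted p = 1.26e-04), with an interaction of -5.11 (adjusted p = 9.32e-04).

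IQGAP3, a scaffold protein of proliferating cells, was at 89.2, 84.5 and 62.6 CPM in the palbociclib libraries and 10.6, 9.42 and 12.8 CPM in the combination libraries (log2 change -2.85, SE 0.17, adjusted p = 3.52e-06). LPL, lipoprotein lipase, was at 6.84, 7.28 and 9.90 CPM in the palbociclib libraries and 1.86, 1.31 and 1.54 CPM in the combination libraries (log2 change -2.35, SE 0.20, adjusted p = 5.32e-05). NEURL1B, a ubiquitin ligase of the NOTCH pathway, was at 8.85, 12.7 and 9.94 CPM in the palbociclib libraries and 1.41, 1.21 and 1.44 CPM in the combination libraries (log2 change -2.95, SE 0.53, adjusted p = 0.00841), a call lost without combination 2 (adjusted p = 0.0512). EGFR also passed the interaction (log2 -1.95, SE 0.27, adjusted p = 0.00383).

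The log2 change varied with gene GC content, in a direction that turned without palbociclib 3. Tested genes were split by GC content into 5 groups of equal size. From the lowest to the highest of these the median log2 change ran from -0.0906 to 0.106 with all libraries and from 0.0864 to -0.146 without palbociclib 3. The mitotic lists have median GC contents of 41.6% to 48.4%, beside 48.4% over all tested genes, and their median log2 change was -1.21 with it and -1.11 without it. With a smooth GC trend removed from each library, 95 of the 103 mitotic genes fell and the median was -1.11, beside the near-equal numbers of rises and falls over all genes.

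**Figure D5:**
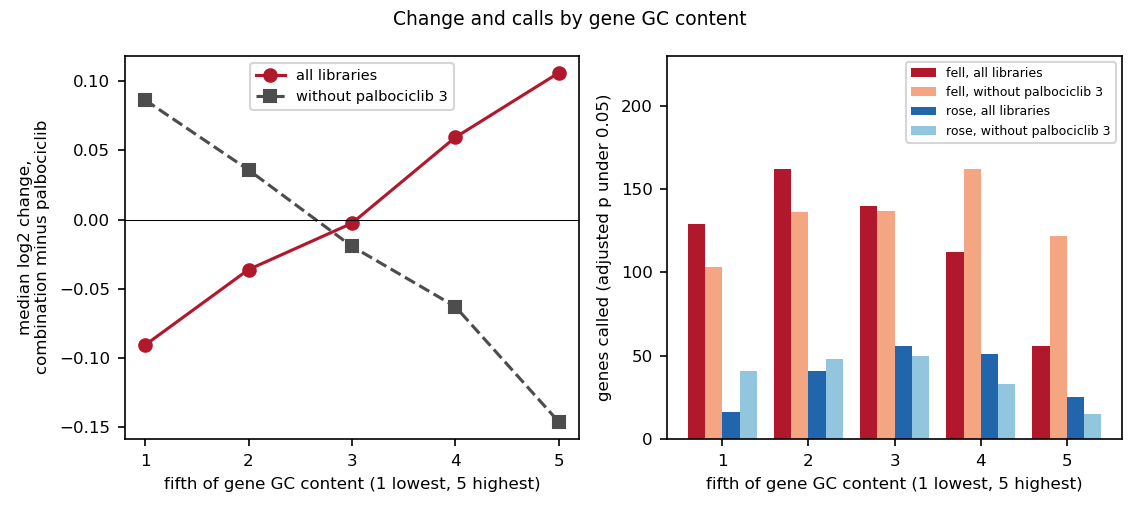
Median log2 change in the combination against palbociclib (left) and number of genes called (right, bars from 0) by gene GC content in 5 groups of equal size, with all libraries and without palbociclib 3. The slope of the medians turns over when palbociclib 3 is left out, while falls outnumber rises in each of the 5 groups both ways.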

How the data were processed

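H520 poly(A) RNA libraries were analysed from the deposited count table, 58174 Ensembl gene IDs by 12 libraries, which the authors made; counting tool and strand are not given in the sources used here. The deposited TPM and FPKM tables served as alternatives. The submitters' processing notes name Trimmomatic 0.36, HISAT2 2.0, StringTie 1.3.3b and bedtools 2.26.0. They list a mouse build, although the gene IDs are human. Of the IDs, 57836 matched GENCODE 29 (GRCh38), the source of names and coordinates.

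One quasi-likelihood model in edgeR 4.0.16 (R 4.3.3, TMM scaling, filterByExpr) was fitted to all 12 libraries, with a coefficient for each group. Called means a Benjamini-Hochberg adjusted p under 0.05 over 20612 genes. Alternatives were DESeq2 1.42.0, limma 3.58.1 on log2(TPM + 0.5) and log2(FPKM + 0.5), other scalings and filters, GC offsets, the replicate block and each library left out. The edgeR script was tested on simulated counts. Named genes were a fixed panel, the 10 largest rises and falls past the threshold with and without palbociclib 3 at 5 CPM or more and without overlap, the 4 best-supported calls of each list, and the 4 rises and 4 falls with the smallest interaction p. The members and the 53 lists (991 genes) were chosen with earlier results of these data known. Replicates of 1 group differed by more than counting noise, with chi-square per degree of freedom of 17.5 to 85.6.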

Additional observations from a re-analysis of the deposited data

Results flagged for a closer look

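Of the 96 called genes named above and in the other observations, 62 passed the interaction test (edgeR quasi-likelihood, adjusted p under 0.05). In these 62 the BLU9931 difference with palbociclib departed from that without it. Over all 20612 genes 328 passed (1.59%), and among the 599 falls and 189 rises 238 and 30. The named genes were chosen in part by size of change and by interaction p, which raises their share. All 62 also passed without palbociclib 3, a setting that called 975 genes, while 146 were called without BLU9931 1. Values are interaction log2. 44 are genes of division, DNA synthesis or repair or their regulators, all below 0. The lowest were -3.30 for PIF1, -3.21 for IQGAP3, -2.79 for KIF20A, -2.77 for AURKB, -2.52 for MYBL2, -2.52 for CKAP2L, -2.46 for MKI67, -2.31 for CEP55, -2.29 for DLGAP5, -2.19 for KIF2C and -2.13 for KIF4A. Next came -2.09 for RRM2, -2.06 for NEIL3, -2.06 for E2F8, -2.03 for PTTG1, -2.02 for TOP2A, -2.02 for E2F7, -2.01 for SPC25, -2.0 for PLK1, -1.99 for TYMS, -1.99 for CDKN2C and -1.76 for CIT. They were followed by -1.73 for KIFC1, -1.73 for CCNA2, -1.71 for NUF2, -1.63 for E2F2, -1.60 for NEK2, -1.58 for UBE2C, -1.44 for NDC80, -1.43 for CDCA8, -1.41 for CDC45, -1.41 for CENPF and -1.38 for CCNB2. The smallest were -1.37 for CHAF1B, -1.37 for EXO1, -1.34 for POLE2, -1.34 for MCM10, -1.30 for CLSPN, -1.29 for NCAPH, -1.24 for PRC1, -1.20 for SPAG5, -1.18 for TPX2, -1.11 for NCAPD2 and -0.74 for FANCD2.

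Of the other genes, 10 were below 0, with -5.11 for LAMA1, -4.18 for DKK2, -3.93 for NEURL1B, -2.56 for COL4A2, -2.42 for THY1, -2.07 for F13A1, -1.95 for EGFR, -1.81 for LPL, -1.48 for IGF1R and -1.17 for OAS3. Above 0 there were 8, with 2.19 for ZNF589, 1.89 for ZNF678, 0.90 for ODC1, 0.90 for AKR1C1, 0.83 for ESRG, 0.74 for SRXN1, 0.64 for AKR1C2 and 0.50 for NQO1.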

How the results depend on the processing

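In the combination against palbociclib, falls outnumbered rises in each of the settings below, and 198 falls and 30 rises were called in all 17 settings chosen at the start, 56 of these falls in the mitotic lists. The counts moved. The genes that rose (189) and fell (599) became 374 and 942 with DESeq2, 59 and 233 with only the 6 libraries compared, 91 and 392 with the replicate block, 1248 and 1297 with GC offsets, and 924 and 1090 with both GC offsets and the block. They were 750 and 1286 with control 1 and palbociclib 3 both left out. Without a low-count filter 111 rose. Rises ranged from 68 (without combination 2) to 210 (without control 1) and falls from 356 (without combination 1) to 746 (without control 1) when 1 library was left out. After seeing the data, 2 settings without palbociclib 3 were added, as was leaving out each control or BLU9931 library: 353 rose with only the other 5 compared libraries, and 963 rose and 1089 fell with GC offsets.

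For the interaction, the genes above 0 (58) and below 0 (270) became 233 and 605 with DESeq2, 12 and 130 with the replicate block, 970 and 941 with GC offsets, 655 and 751 with GC offsets and the block, 891 and 1196 without control 1 and palbociclib 3, and 1127 and 936 with GC offsets and without palbociclib 3. Above 0 there were 34 with no low-count filter, 33 on TPM and 34 on FPKM. Leaving out 1 library gave 13 (without BLU9931 1) to 332 (without palbociclib 3) above 0 and 133 (without BLU9931 1) to 643 (without palbociclib 3) below. The cause of these shifts was not tested. The replicate numbers did not pair the libraries: same-numbered palbociclib and combination libraries had correlations of their deviations of -0.217, -0.125 and -0.356.

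The correlation across genes between the BLU9931 differences with and without palbociclib turned to -0.042 without palbociclib 3 and -0.012 without control 1 as well. The sign of 4 genes that were not called also turned. FGFR4 had log2 changes of -0.3377 without palbociclib 3, -0.3236 without control 1 as well, -0.3237 with only the compared libraries and without palbociclib 3, -0.1219 with GC offsets and without it, -0.0743 on TPM, -0.0695 on FPKM and -0.0003 without combination 3, in a leave-one-out range of -0.3377 to 0.2455. RB1 had 0.0421, 0.0558, 0.0559 and 0.0045 in the first 4 of these settings, with a leave-one-out range of -0.3591 to 0.0421. FGFR1 had 0.0851, 0.0789 and 0.0047 without palbociclib 1, palbociclib 2 or combination 1, in a range of -0.2533 to 0.0851. CDK6 had -0.0703 and -0.0168 without palbociclib 1 or 2, in a range of -0.0703 to 0.237. Depth limits genes under about 1 CPM, where 1 library holds few counts.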

Other observations

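Outside the cell cycle and repair, 633 genes of 39 lists were tested, of which 18 rose (0.917% of all tested genes rose) and 29 fell (2.91% of all fell), with a median log2 change of 0.05. In 17 of the lists, with 269 genes tested, edgeR called 0 genes. Of those 269 genes, 40 had an unadjusted p under 0.05 and DESeq2 called 12. Over all 20612 genes tested these counts were 3200 and 1316, so the 17 lists do not stand out. The 17 lists include ribosome biogenesis, cytosolic ribosomal proteins, proteasome subunits, cholesterol synthesis and class I antigen presentation.

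Single genes of the other lists are given by name. VIM, vimentin of the intermediate filaments, was at 305.9, 296.6 and 319 CPM with palbociclib and 535.7, 548.7 and 535.1 CPM with the combination, with no overlap (log2 change 0.81). OAS3, an interferon-induced sensor of double-stranded RNA, was at 26.4, 24.1 and 20.25 CPM with palbociclib and 10.3, 10.7 and 11.7 CPM with the combination, again with no overlap. Its log2 change was -1.11 and it was the 1 gene called of 21 interferon-stimulated genes tested. TRIB2, a pseudokinase regulated by FOXO factors, was at 19.9, 20.7 and 26.1 CPM and at 11.4, 11.7 and 11.9 CPM in the same groups (log2 change -0.93), and PFKP, the platelet form of phosphofructokinase, at 33.8, 33.1 and 25.7 CPM and at 15.1, 16.7 and 18.98 CPM (log2 change -0.87). NPC2, which carries cholesterol out of lysosomes, rose by 0.66 on the log2 scale and was the 1 gene called of 30 lysosomal and autophagy genes. With 3.82% of all tested genes called, a count of 1 sets neither this list nor the interferon-stimulated list apart. BLU9931 alone gave VIM, OAS3, TRIB2, PFKP and NPC2 log2 differences of 0.31, 0.06, -0.58, 0.04 and 0.63.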
